A study of Mus musculus with 2 samples.

Results

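The accessible regions around Tcf7 and Lef1, the genes of the transcription factors TCF1 and LEF1, were examined in early thymic progenitors (ETPs) with and without the E proteins E2A and HEB. Members were all ATAC-seq peaks with their centre in fixed windows of the mm9 mouse genome. The Tcf7 window ran from 51.96 to 52.2 Mb on chromosome 11 around a gene on the minus strand, from about 52.097 Mb (its start) to about 52.066 Mb. The Lef1 window ran from 130.7 to 131.03 Mb on chromosome 3 around a gene on the plus strand that starts at about 130.813 Mb. They held 53 of the 69896 peaks of the double-knockout list and 47 of the 85764 peaks of the wild-type list. The double-knockout cells came from C57BL/6 fetal thymus with floxed E2A and HEB alleles (E2Afl/fl and HEBfl/fl) and IL7RCre, a Cre driven from the interleukin-7 receptor gene, which is active in lymphoid progenitors. The wild-type cells came from C57BL/6 fetal thymus. Both were sorted as CD4- CD8- Lin- CD44+ CD25- ckit+ cells, and the double-knockout sort used YFP+ as a further gate. The labels used here do not state the embryonic age, the number of animals pooled or their sex.

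TCF1 and LEF1 are related HMG-box proteins that bind the same DNA motif and act with beta-catenin as activators or with Groucho/TLE proteins as repressors. Tcf7 is switched on by Notch1 signalling when progenitors settle in the thymus and is required for the T cell programme, and TCF1 is also needed for innate lymphoid cells. Lef1 acts partly redundantly with Tcf7 and becomes important at later thymocyte stages. E2A (gene Tcf3) and HEB (gene Tcf12) are basic helix-loop-helix proteins that bind E-box sequences. Despite their gene symbols they do not belong to the TCF/LEF family.

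There was 1 library per genotype, so no difference between genotypes has a replicate check and none was tested. The deposited lists give 1 position and 1 score per peak, nearly always over 151 bp. The labels and files state no unit for the authors' score, and the read depth is unknown. Each peak is therefore described by its percentile, the percent of its own list with a lower score, with 0.5 counted for each tie. The lists differ in length, so a different percentile does not by itself show a change in accessibility, and the main comparisons of percentiles are also given with the wild-type list shortened to its 69896 strongest peaks. The shortening lowers the percentile of every remaining wild-type peak, most at low ranks, and leaves those of the double knockout unchanged. Every difference thus moves towards the double knockout, and a larger one at equal list lengths is not a further finding. No peak of the double-knockout list and 10 of the wild-type list lay on chromosome Y, and sex could not be separated from genotype. Loss of E2A and HEB and the markers of the sorted cells could not be checked from the lists, because no gene annotation of mm9 was at hand.

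The DNA around an annotated start of each gene is shown first, because E proteins recognise the E-box CANNTG. The sequences are from RefSeq (build GRCm38.p6), run 5′ to 3′ from 250 bases before to 50 bases after the start listed furthest upstream in the promoter table, and carry E-boxes in capitals. The Tcf7 window is chr11:52282965-52283264 (minus strand) and the Lef1 window chr3:131110047-131110346 (plus strand). They are of another build than the peaks and were not placed within them. The RefSeq gene record of Tcf7 reaches 119 bases further upstream than the printed window, which therefore lies inside the annotated gene, while the Lef1 window begins 250 bases before the gene record.
Tcf7: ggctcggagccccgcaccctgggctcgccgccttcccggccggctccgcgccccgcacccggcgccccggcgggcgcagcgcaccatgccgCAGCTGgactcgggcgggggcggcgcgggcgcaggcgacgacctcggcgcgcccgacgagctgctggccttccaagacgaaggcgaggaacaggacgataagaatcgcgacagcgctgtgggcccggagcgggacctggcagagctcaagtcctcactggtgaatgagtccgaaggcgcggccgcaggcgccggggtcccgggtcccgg
Lef1: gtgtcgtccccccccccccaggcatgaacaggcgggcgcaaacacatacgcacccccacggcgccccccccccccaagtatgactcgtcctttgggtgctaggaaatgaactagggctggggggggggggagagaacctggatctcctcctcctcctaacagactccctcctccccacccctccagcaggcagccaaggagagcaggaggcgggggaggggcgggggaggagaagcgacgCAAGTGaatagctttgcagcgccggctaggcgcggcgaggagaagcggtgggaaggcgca

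The printed Tcf7 sequence held 1 E-box, CAGCTG, which began 159 bases before the listed start. It lies 6 bases after the first base of an ATG. The reading frame from that ATG holds no stop codon over the 71 codons to the end of the window. This E-box thus lies in an open reading frame inside the annotated gene, as coding sequence of transcripts that start further upstream would. It is not read here as a promoter element. The printed Lef1 sequence also held 1 E-box, CAAGTG, which began 10 bases before the start. Of 32851 RefSeq promoter sequences of the same length, 72.3% held at least 1 CANNTG, 16.3% held CAGCTG and 20.2% held CACCTG, each searched on both strands, where the CANNTG share includes the other two. The other annotated Tcf7 start held 1 E-box (CAGGTG, the reverse complement of CACCTG). The other 3 Lef1 starts held 2, 3 and 1 E-boxes, and the first of these windows overlaps the printed sequence. In the promoters of the other TCF/LEF family members, Tcf7l1 and Tcf7l2, the letters CANNTG did not occur, over 1 and 2 annotated starts. The TCF/LEF motif TTCAAAG occurred in none of the 6 Tcf7 and Lef1 sequences, against 5.14% of all promoters. The RBPJ motif TGGGAA, recognised by the DNA-binding partner of Notch, occurred in 3 of the 4 Lef1 sequences, of which 2 overlap each other, and in neither Tcf7 sequence, against 25.6% of all promoters. The RUNX motif TGTGGT occurred in none of the 6, against 16.8% of all promoters. Both Tcf7 sequences lie inside the annotated gene, and the DNA upstream of its gene record was not searched. A motif missing from them says nothing of that DNA. These are matches of letters in short windows and not measured binding.

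Most peaks at both genes were found in both genotypes. In the Tcf7 window, 28 double-knockout and 23 wild-type peaks formed 20 overlapping pairs (at least 1 bp shared), left 8 peaks in the double knockout alone, called gained here, and 3 in the wild type alone, called lost. In the Lef1 window, 25 double-knockout and 24 wild-type peaks formed 20 pairs, with 5 gained and 4 lost. The gained share of the double-knockout peaks was 28.6% at Tcf7 (exact Clopper-Pearson 95% interval 13.2 to 48.7%) and 20.0% at Lef1 (6.83 to 40.7%), close to the 25.3% of the whole double-knockout list. The lost share of the wild-type peaks was 13.0% at Tcf7 (2.78 to 33.6%) and 16.7% at Lef1 (4.74 to 37.4%), against 39.1% of the whole wild-type list. These intervals cover counting error only and treat neighbouring peaks as independent. The shares also depend on the unequal list lengths. With both lists at 69896 peaks, 18 peaks were kept at Tcf7, 3 lost and 10 gained, and 19, 4 and 6 at Lef1. Over the whole lists 47916 pairs were then kept, so that the lost and gained shares were equal. Among peaks above the median score, 2 of 15 double-knockout peaks at Tcf7 and 1 of 15 at Lef1 were gained, against 14.7% of such peaks in the whole list. Among wild-type peaks above the median score, 1 of 9 peaks at Tcf7 and 2 of 15 at Lef1 were lost, against 20.5% of such peaks in the whole list. The Lef1 shares also depend on the window edges. With that window widened by 50 kb at each end, 22 peaks were kept, 7 lost and 11 gained.

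**Figure D1:**
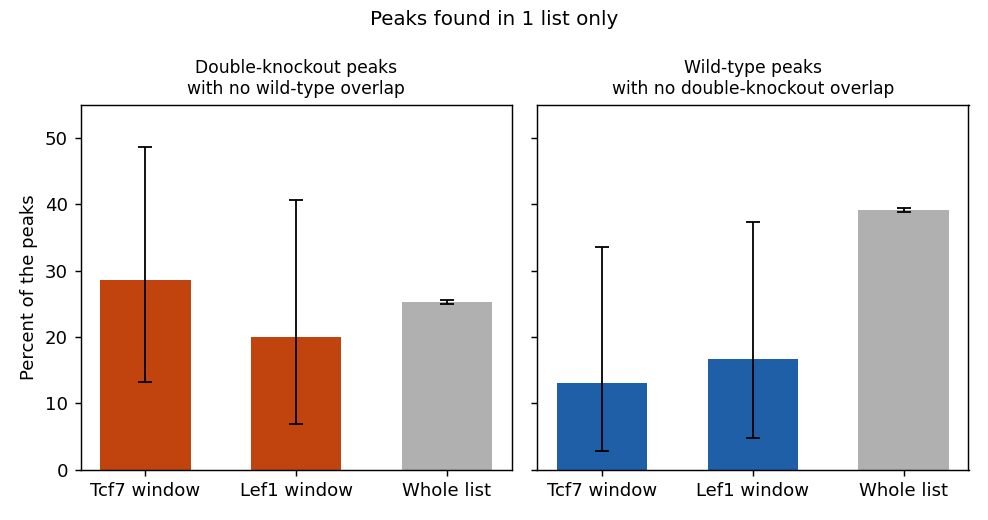
Percent of double-knockout peaks without wild-type overlap (left) and of wild-type peaks without double-knockout overlap (right) in the Tcf7 window, the Lef1 window and the whole list; bars are shares and lines exact 95% intervals over peaks. Gained shares of 28.6% and 20.0% lie on either side of the whole list's 25.3%, and lost shares of 13.0% and 16.7% lie below its 39.1%. The full lists, which differ in length, are plotted.

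Both windows held more peaks than the median window of their length. The Tcf7 window of 240 kb held 28 double-knockout and 23 wild-type peaks, where consecutive windows of that length with any peak held a median of 6 and 9. The Lef1 window of 330 kb held 25 and 24, where the medians were 8 and 11. The windows extend beyond both genes, and whether they reach the neighbouring genes was not determined. In the RefSeq gene order (GRCm38.p6) the protein-coding neighbours of Tcf7 are Skp1, a subunit of SCF ubiquitin ligases, and Vdac1, a mitochondrial outer membrane channel. Those of Lef1 are Rpl34, a ribosomal protein gene, and Hadh, a fatty acid oxidation enzyme, followed by Cyp2u1. No peak was assigned to these neighbours. The first pair beyond the upper edge of the Tcf7 window (chr11:52209884-52210034) stood at percentile 82.7 of the double-knockout and 80.8 of the wild-type list, and the last pair inside it at 21.4 and 0.315. At the lower edge the first pair outside stood at 14.7 and 28.6, and the last pair inside at 11.6 and 21.5. At Lef1, a peak of the double knockout alone lay 134 bp outside the lower edge (percentile 36.1), and the first pair beyond the upper edge stood at 89.1 and 90.5, against 56.7 and 54.6 for the last pair inside.

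At the start of Tcf7, both genotypes had 2 peaks within 1 kb of the approximate gene start. Positions of pairs are given as those of the double-knockout peak. The pair at the start itself (chr11:52096838-52096988) had a score of 15.2 in the double knockout, at percentile 73.4 of that list, and a score of 9.97 in the wild type, at percentile 60.5. The pair just upstream (chr11:52097894-52098044) stood at percentile 57.2 in the double-knockout list and 39.5 in the wild-type list. Both pairs thus held a higher place among the double-knockout peaks, by 12.8 and 17.6 points. At equal list lengths, where the difference of every remaining pair moves this way, it was 21.8 and 31.4 points.

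Inside Tcf7, 3 pairs were kept, 1 peak was lost and 1 was gained. The stronger pairs lay about 14.8 and 17.7 kb into the gene. The first (chr11:52082101-52082251) stood at percentile 84.2 in the double knockout and 73.2 in the wild type, and the second (chr11:52079235-52079385) at 87.1 and 84.1. The remaining pair, near the far end, stood at 32.5 and 24.0. The gained peak (chr11:52088980-52089130) lay about 7.94 kb from the start at percentile 63.6 of the double-knockout list, with a score of 11.1. It was the highest-scoring gained peak of the window, and the nearest wild-type peak was 6.75 kb away. The lost peak (chr11:52075562-52075712) lay about 21.4 kb into the gene at percentile 47.4 of the wild-type list, with the nearest double-knockout peak 3.52 kb away.

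Upstream of Tcf7, 11 pairs were kept, of which 7 had the higher percentile in the double knockout (8 of 10 at equal list lengths). The highest-placed of these (chr11:52174462-52174612), about 77.5 kb upstream, stood at percentile 88.7 in the double knockout and 87.3 in the wild type. Whether this pair belongs to Tcf7 or to a neighbouring gene such as Vdac1 was not determined. A group of strong peaks lay about 27 to 35 kb upstream of the start, and its peaks differed from each other. The pair at about 30.9 kb (chr11:52127837-52127987) kept its place, with percentile 86.0 in the double knockout and 87.3 in the wild type. The pair at about 35.1 kb (chr11:52132154-52132304) was the highest-scoring peak of the window in the wild type, at percentile 88.1 with a score of 24.8. In the double knockout it ranked 8 of 28 in the window, at percentile 73.7 with a score of 15.4, and its centre lay 99 bp away, the widest offset of the 20 pairs. The only lost Tcf7 peak above the median of its list (chr11:52124412-52124562) lay in the same group, about 27.5 kb upstream, at percentile 74.9 of the wild-type list with a score of 14.6. The nearest double-knockout peak was 3.27 kb away. In this group, then, 1 peak was placed alike in both lists, 1 lower in the double-knockout list and 1 was found only in the wild type.

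Closer to the start, a pair of neighbouring peaks stood higher in the double-knockout list. The pair about 16.3 kb upstream (chr11:52113314-52113464) stood at percentile 79.1 in the double knockout, with a score of 19.1, and at 41.3 in the wild type, with a score of 6.68. Its neighbour about 14.0 kb upstream (chr11:52110990-52111140) stood at 50.9 and 30.8. These pairs, like others named beyond the highest-placed 5 and the one nearest the start, were chosen after their values were seen. Peaks gained upstream were 1 at about 59.8 kb (chr11:52156771-52156921, percentile 53.7) and 1 at about 10.8 kb (chr11:52107729-52107879, percentile 29.6).

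Beyond the far end of Tcf7, 4 pairs were kept, 1 peak was lost and 5 were gained. The widest percentile difference of the window was here, about 42.4 kb from the start (chr11:52054514-52054664). This pair had a score of 24.1 in the double knockout, at percentile 84.0, and of 6.79 in the wild type, at percentile 42.1. It ranked 5 of 28 peaks in the double-knockout window and shared rank 13 of 23 in the wild-type window, and its peak centres differed by 4 bp. The strong pair at about 51.5 kb (chr11:52045388-52045538) stood at 81.1 and 79.9. It too could belong to a neighbouring gene such as Skp1, which was not determined. The 5 gained peaks were weak, at percentiles 3.20 to 25.2 of the double-knockout list. One of them lay 128 bp from the lost peak of this stretch (chr11:52037913-52038063, percentile 42.1 of the wild-type list), so that 1 displaced region and 2 separate ones cannot be told apart there.

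**Figure D2:**
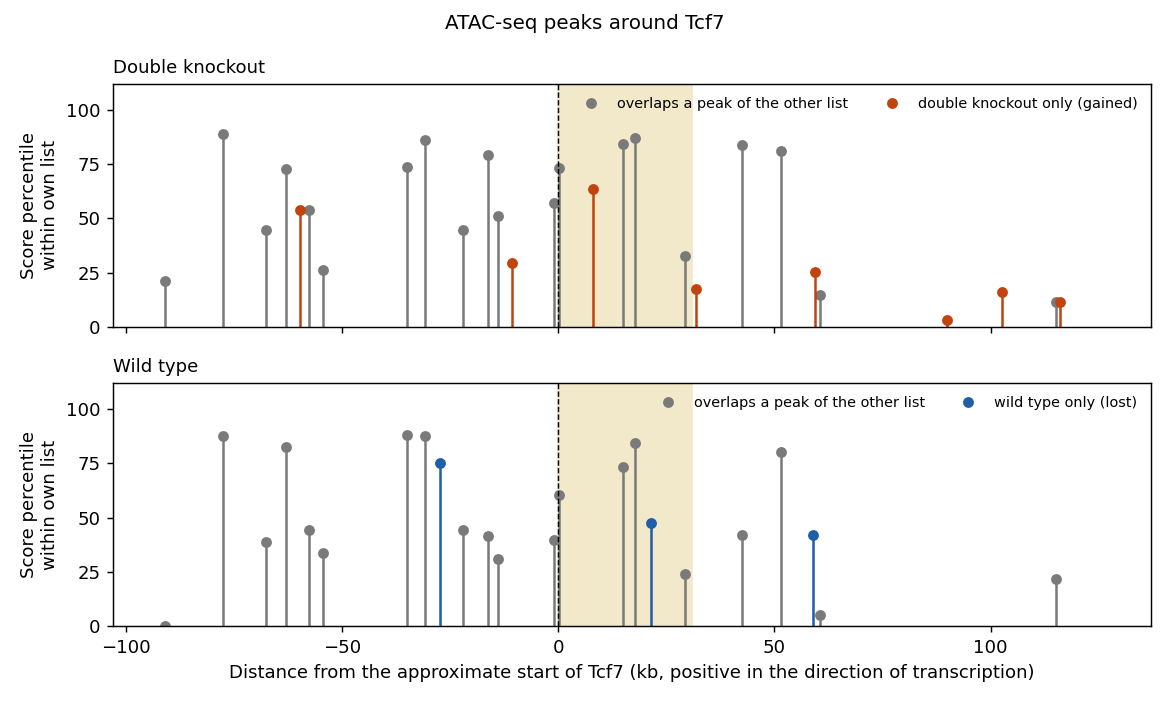
Peaks in the Tcf7 window by distance from the approximate gene start (kb, positive in the direction of transcription, gene shaded, start dashed), with height as score percentile in the double-knockout list (top) and wild-type list (bottom); grey peaks overlap a peak of the other list, orange peaks are gained and blue peaks lost. The group about 27 to 35 kb upstream holds the lost peak at percentile 74.9, and the pair 42.4 kb from the start stands at 84.0 above and 42.1 below.

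At Lef1 no peak of either list lay within 1 kb of the approximate gene start. Lef1 has 4 annotated starts, and whether a peak lies at one of the others was not determined. The promoter window of one of them is chr3:131112541-131112840 (GRCm38.p6), downstream of the printed one at 131110047-131110346. The nearest pair (chr3:130815249-130815399), about 2.31 kb inside the gene, had a score of 39.2 in the double knockout, at percentile 92.0, and of 18.8 in the wild type, at percentile 82.3. The pair about 3.93 kb upstream (chr3:130808998-130809148) stood at percentile 61.8 in the double knockout and 56.9 in the wild type. Both held a higher place in the double-knockout list, by 9.72 and 4.85 points. At equal list lengths, where the difference of every remaining pair moves this way, it was 13.7 and 14.6 points.

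Further upstream of Lef1 were 3 more kept pairs, each with the higher percentile in the double knockout. The pair about 90.3 kb upstream stood at 89.1 and 82.1, the pair about 52.6 kb upstream at 87.6 and 83.8, and the weaker pair about 24.8 kb upstream at 35.2 and 25.2. The differences over the 4 upstream pairs were thus 3.80 to 9.99 points, all in one direction. The strongest lost peak at Lef1 (chr3:130717286-130717436) lay about 95.6 kb upstream at percentile 82.0 of the wild-type list, with a score of 18.6. The only gained peak above the median of its list (chr3:130716997-130717147, percentile 60.2) lay 138 bp from it. At this site a region displaced between the lists and 2 separate regions cannot be told apart. The other upstream single-list peaks were gained at percentiles 43.4 and 10 of the double-knockout list and lost at 29.7 of the wild-type list, each 6.65 to 7.54 kb from the nearest peak of the other list.

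Downstream of the Lef1 start, 16 pairs were kept, 7 of them with the higher percentile in the double knockout. At equal list lengths this was 10 of the 15 remaining pairs. The highest-scoring peak of the window in both genotypes (chr3:130911489-130911639), about 98.6 kb from the start, stood at percentile 97.4 in the double knockout and 98.7 in the wild type, with scores of 61.7 and 61.0 in their own lists. The pairs at about 193 kb (chr3:131006091-131006241; 92.9 and 95.6) and 162 kb (chr3:130974909-130975059; 91.6 and 92.3) also held nearly the same place. The pair about 47.6 kb from the start (chr3:130860440-130860590) had a score of 48.2 in the double knockout, at percentile 94.8 and rank 2 of the window, and of 21 in the wild type, at percentile 84.9 and rank 4. Of the 5 highest-placed pairs of the Lef1 window, 4 thus lay about 47.6 to 193 kb beyond the Lef1 start. Whether these pairs belong to Lef1 or to a neighbouring gene such as Hadh or Cyp2u1 was not determined.

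The widest differences at Lef1 were rises at pairs that were weak in the wild type. A rise this wide is possible only where the wild-type percentile leaves room for it. The pair at about 123 kb (chr3:130935544-130935694) stood at percentile 63.3 in the double knockout and 18.9 in the wild type. The pair at about 90.0 kb (chr3:130902937-130903087) stood at 42.6 and 3.28, where the wild-type peak had the lowest score in the window. That wild-type peak is not in the shortened wild-type list. In the other direction, the pair at about 105 kb stood at 27.4 and 42.8, and the pair at about 190 kb at 70.3 and 80.4. At equal list lengths these differences, double knockout minus wild type, shrank to -2.41 and -5.64 points. The peaks lost downstream stood at percentiles 58.5 (chr3:130998817-130998967, with the nearest double-knockout peak 3.96 kb away) and 20.2 of the wild-type list. The peaks gained there stood at 39.4 and 14.7 of the double-knockout list.

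**Figure D3:**
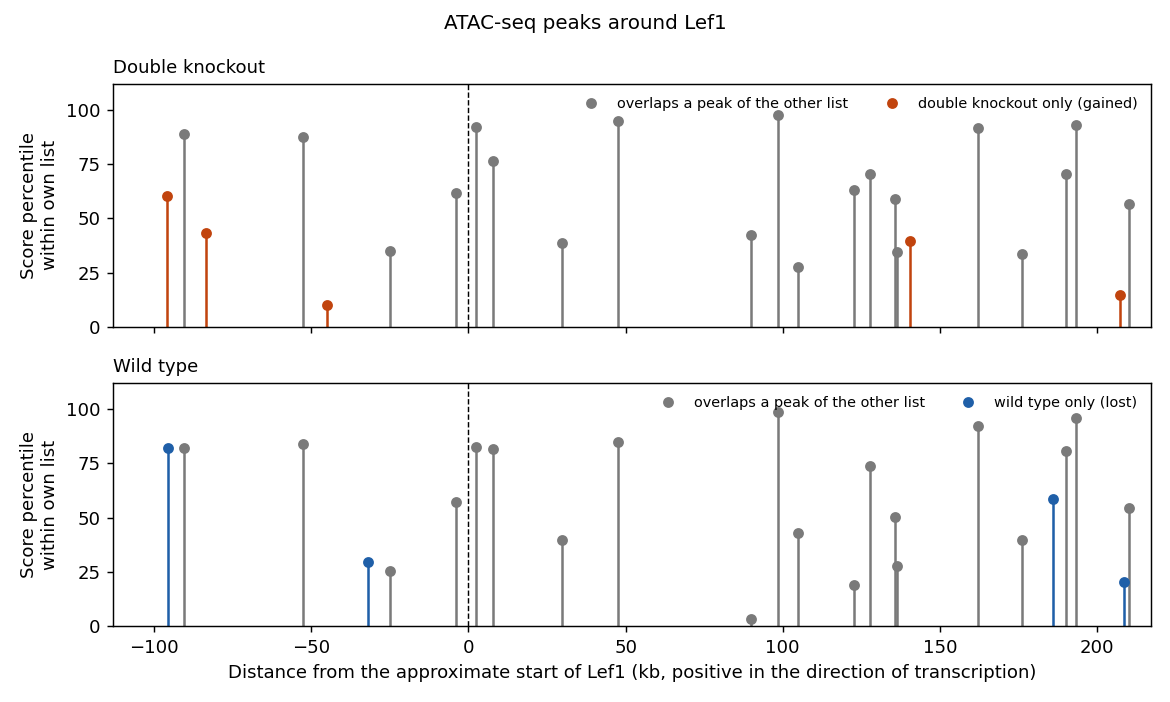
Peaks in the Lef1 window by distance from the approximate gene start (kb, positive in the direction of transcription, start dashed), with height as score percentile in the double-knockout list (top) and wild-type list (bottom); grey peaks overlap a peak of the other list, orange peaks are gained and blue peaks lost. The pair at 98.6 kb is the highest in both panels, at 97.4 and 98.7. No peak stands at the dashed approximate start, and other annotated starts are not drawn.

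Over all kept pairs, 15 of 20 at Tcf7 and 11 of 20 at Lef1 had the higher percentile in the double knockout, against 35.6% of the 52206 kept pairs of the whole lists. The median difference, double knockout minus wild type, was 7.33 percentile points at Tcf7 (exact binomial 95% interval of the median 0.399 to 12.8, range -14.4 to 41.9). It was lower in some other settings, at 1.31 points among wild-type peaks in the upper 50% by score. With the window widened by 50 kb it was 2.48 points. Picking pairs on the wild-type score by itself tends to lower the difference, and a dependence on strength was not tested. The median was 2.97 points at Lef1 (-2.66 to 8.77, range -15.4 to 44.4) and -2.67 points over all kept pairs. A difference of at least 10 points towards the double knockout was seen in 7 of 20 pairs at Tcf7 and 2 of 20 at Lef1, against 14.6% of all pairs. The same towards the wild type was seen in 1 and 2 pairs, against 31.3%.

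The whole-list values depend on list length. With both lists at 69896 peaks, 16 of 18 remaining pairs at Tcf7 and 14 of 19 at Lef1 had the higher percentile in the double knockout, against 54.7% of all pairs. The median difference was then 15.0 points at Tcf7 (5.76 to 25.7), 10.96 points at Lef1 (-1.06 to 14.6) and 0.77 points over all pairs. Differences of at least 10 points towards the double knockout numbered 10 at each gene, against 25.3% of all pairs. Those towards the wild type numbered 1 at Tcf7 and 0 at Lef1, against 20.6% of all pairs, so that the balance at Lef1 seen with the full lists was not kept. These intervals treat peaks of 1 locus as independent and say nothing of the spread between animals. The order of the peaks within each locus was largely shared between the lists, with a Spearman correlation of percentiles of 0.84 over 20 pairs at Tcf7, 0.88 over 20 pairs at Lef1 and 0.77 over all pairs. The points of a locus share their library and its depth, and the correlations are descriptions. Paired peaks were also close in position, with a median distance between centres of 17.5 bp at Tcf7, 11.5 bp at Lef1 and 10 bp over all pairs.

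**Figure D4:**
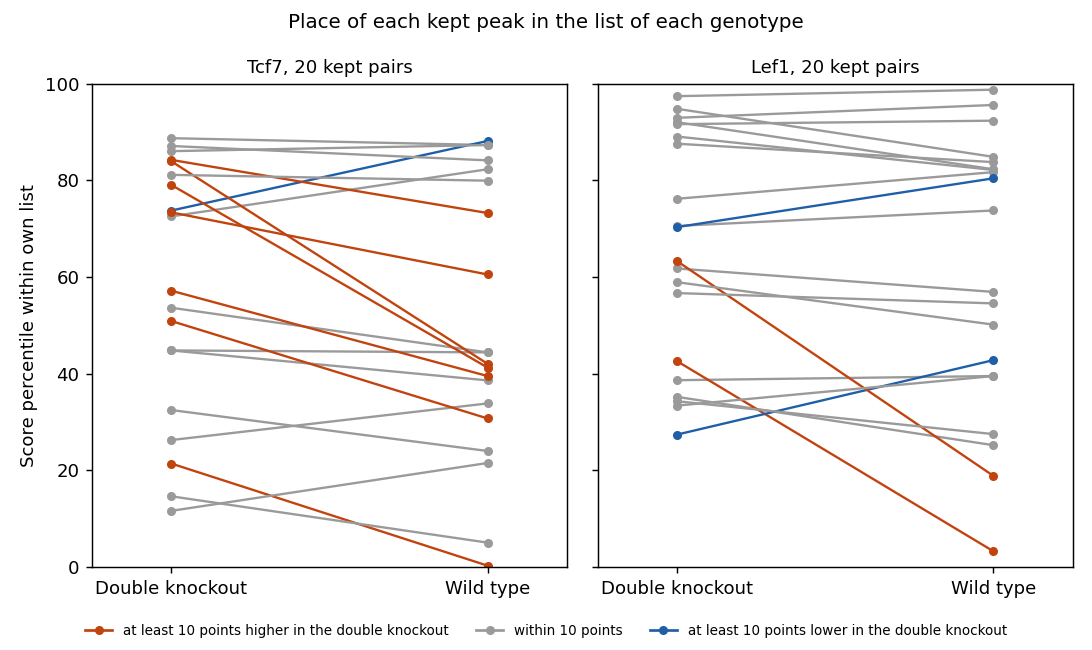
Score percentile of each kept peak within the double-knockout list (left end) and the wild-type list (right end) at Tcf7 and Lef1, with 20 pairs each; orange lines are at least 10 points higher in the double knockout, blue lines at least 10 points lower. Tcf7 has 7 orange lines and 1 blue line and Lef1 has 2 of each with the full lists plotted here, against 10 up and 1 down at Tcf7 and 10 up and 0 down at Lef1 at equal list lengths.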

How the data were processed

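ATAC-seq peaks of 1 double-knockout and 1 wild-type library of sorted ETPs were compared, with groups taken from the genotype label. The submitters' processing notes name bcl2fastq 1.8.4, Bowtie, HOMER and mm9, without roles or settings. Peak threshold, read shift and duplicate handling are stated in none of the sources at hand, and each could change which peaks are listed. The authors' score, in the deposited lists, has no stated unit and served only to rank peaks inside their own list. Coordinates are 1-based.

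A peak sharing 1 bp or more with the other list was kept, and otherwise gained (double knockout) or lost (wild type). Members, motifs and alternatives were chosen with earlier results of these data known. Named were the pairs nearest each start, the 5 highest-placed pairs per gene by mean percentile, and single-list peaks above the median. Other names were added after their values were seen. The overlap step was tested on simulated data. Calculations ran in Python 3.11.15 with pandas 2.3.3, SciPy 1.17.1, NumPy 2.4.6 and, for figures, matplotlib 3.10.9.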

Additional observations from a re-analysis of the deposited data

How the results depend on the processing

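No paired analysis was possible because each genotype had a single library; leaving out replicates was impossible for the same reason. Of 72 values under other settings, 47 stayed within 1.5 times the count, or within the interval of the median, and no median difference changed sign. With overlap of at least 50% of each peak, 18 Tcf7 peaks were kept, 5 lost and 10 gained. The pairs about 16.3 and 35.1 kb upstream of Tcf7 were then no longer kept. With gaps of up to 5 kb, 0 Tcf7 peaks were lost and 3 gained, and 1 Lef1 peak was lost and 2 gained. In the upper 50% of each list by score, 8 Tcf7 peaks were kept, 1 lost and 7 gained, and 13 Lef1 peaks were kept, 2 lost and 2 gained. Against the whole other list these peaks gave 8 kept, 1 lost and 2 gained at Tcf7, and 13, 2 and 1 at Lef1. With windows narrowed by 50 kb at each end, 13 Tcf7 peaks were kept, 3 lost and 4 gained. At Lef1 this was 15, 1 and 2. With windows widened by 50 kb, 24 Tcf7 peaks were kept, 5 lost and 9 gained. At Lef1 this was 22, 7 and 11. The lost and gained counts at Lef1 thus rose more than the kept count, so its shares depend on the window edges. Over the whole lists, 25.3% of double-knockout peaks were gained and 39.1% of wild-type peaks lost. At equal list lengths the median percentile difference was 15.04 at Tcf7 and 10.96 at Lef1. The Tcf7 median, 7.33 with the full lists, fell to 1.31 for the upper 50% against the whole other list and to 2.48 in the widened window. The Lef1 median was 2.13 and 2.97 there. With the narrowed window the medians were 9.58 and 4.85. In the upper 50% of each list they were 2.51 at Tcf7 and 3.95 at Lef1. Percentiles were recomputed within that part, so those values are on another scale than the full-list medians and come from fewer pairs. Counts in these settings follow from fewer or more peaks or a looser or stricter overlap. The unknown read depth limits what a peak missing from 1 list can show.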
